A study of Homo sapiens with 6 samples.

Results

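The genes described here are the proteins that bind and that remove N6-methyladenosine (m6A) on mRNA, read from a count table of METTL3-knocked down A549 cells. They were chosen by symbol as 8 readers (YTHDF1, YTHDF2, YTHDF3, YTHDC1, YTHDC2, IGF2BP1, IGF2BP2 and IGF2BP3) and 2 erasers (FTO and ALKBH5), or 10 of the 57781 rows listed. A549 is an established human lung adenocarcinoma line, labelled as non-small cell lung cancer. One group carried an empty vector and is labelled WT, the other carried short hairpin RNA against METTL3 (shMETTL3), and each was sequenced as 3 libraries from total RNA. Both groups grew in the same medium with serum and antibiotics. The labels number the libraries as replicates without naming separate cultures, so the p-values measure the spread between these libraries, which may be technical. Each group has its own cells, so an effect of the hairpin and a difference between the cell populations cannot be told apart.

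METTL3 is the catalytic subunit of the writer complex that places m6A on mRNA. YTH-domain proteins recognize the methyl group directly in an aromatic pocket. YTHDF1, YTHDF2 and YTHDF3 are cytoplasmic and are known for linking m6A mRNA to decay and translation, YTHDC1 acts in the nucleus in splicing and export, and YTHDC2 is an RNA helicase best known from meiosis. IGF2BP proteins bind through KH domains and are known for stabilizing m6A mRNA, and they are oncofetal proteins that reappear in many carcinomas. FTO and ALKBH5 are iron-dependent dioxygenases of the AlkB family that demethylate RNA. The comparison asks how the mRNAs of this reading and erasing machinery stood once the writer was lowered.

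The library totals ran from 14931426 to 19108928 counts. METTL3 stood at 49.4, 50.6 and 49.5 CPM (the share of a library's counts on the usual CPM scale, after edgeR's TMM scaling between libraries) in vector replicates 1, 2 and 3 and at 18.9, 19.9 and 19.3 CPM in shMETTL3 replicates 1, 2 and 3, or 38.8% of the vector level. Among the lists of cell type markers, all 8 genes listed for an epithelial lung cancer line changed, 7 of them lower (66.6% of all genes tested changed and 32.9% were lower). Their summed level was 15971 to 16641 CPM in vector and 9367 to 9729 CPM in shMETTL3. Besides epithelial genes such as EPCAM, this list holds the metabolic enzymes AKR1B10, AKR1C1 and NQO1, with means of 4137, 1161 and 1783 CPM in vector. AKR1C1 was the gene that rose, with a log2 fold change of 0.21. The alveolar type 2 genes were nearly silent in both groups, with SFTPA1 at 0 counts in the 6 libraries. The list summed to 2.08 to 2.23 CPM in vector and 2.69 to 3.21 CPM in shMETTL3. Its 1 called gene was SFTPB, higher from 3, 1 and 1 counts in vector to 13, 24 and 11 counts in shMETTL3. The fibroblast list summed to 6.46 to 9.87 CPM in vector and 14.1 to 14.7 CPM in shMETTL3, with COL1A1 called higher (log2 fold change 0.90). The leukocyte list summed to 0.429 to 0.479 CPM in vector and 1.25 to 1.45 CPM in shMETTL3, with CD3E at 0. ITGAM of that list was called higher, from 8, 8 and 7 counts in vector to 24, 25 and 20 counts in shMETTL3. The endothelial list summed to at most 0.123 CPM in vector and 1.40 to 1.95 CPM in shMETTL3, nearly all of it from CDH5. VWF was at 0 and PECAM1 had no row. SFTPB, ITGAM and CDH5 met the filter on low counts through the shMETTL3 libraries alone. The part of these cell type markers in the changes of the readers and erasers was not tested. In such bulk RNA, fewer cells of a type and less RNA per cell cannot be told apart.

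Of the 10 genes, 9 had enough counts to be tested, and 5 of the 9 changed at an adjusted p under 0.05 (quasi-likelihood test of edgeR, Benjamini-Hochberg over 15125 genes). IGF2BP3 and IGF2BP2 fell, and YTHDF1, YTHDF2 and ALKBH5 rose. YTHDF3, YTHDC2, IGF2BP1 and FTO did not pass the test. Across all genes tested, 66.6% changed, with 33.7% higher and 32.9% lower, so that a change is the common outcome in these libraries and 5 of 9 is not above it. The 5 that changed are also the 5 whose groups did not overlap, which 69.4% of all genes tested did not. The median absolute log2 fold change was 0.24 over the 9 genes and 0.41 over all genes tested, and the median log2 fold change was 0.067 and 0.0022. Only IGF2BP2 and IGF2BP3 passed with a minimum absolute log2 fold change of 0.5, which 39.1% of all genes did. The 4 small differences depend on the scaling: with library sizes alone, YTHDF3, YTHDC2 and FTO also passed as higher, for 8 changed genes of which 6 were higher. Of all genes tested, 67.8% changed under that scaling, with 44.6% higher and 23.2% lower, and the median of all genes then lay at 0.18.

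**Figure D1:**
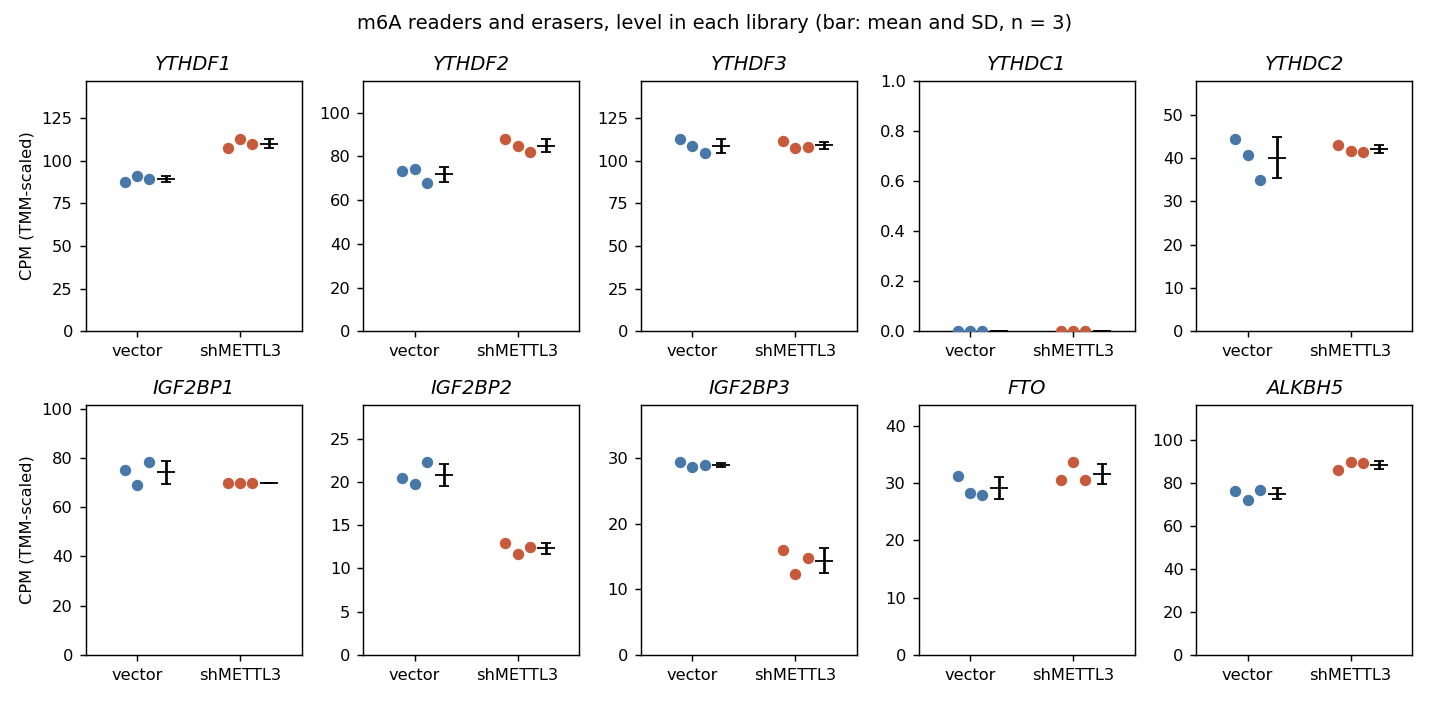
Level of each reader and eraser in CPM (TMM-scaled, linear axis from 0) in the 3 vector libraries (blue) and the 3 shMETTL3 libraries (red), with the mean and SD as a black bar. IGF2BP2 and IGF2BP3 sit lower in each shMETTL3 library than in each vector library, YTHDF1, YTHDF2 and ALKBH5 sit higher, and YTHDC1 is listed at 0 throughout.

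**Figure D2:**
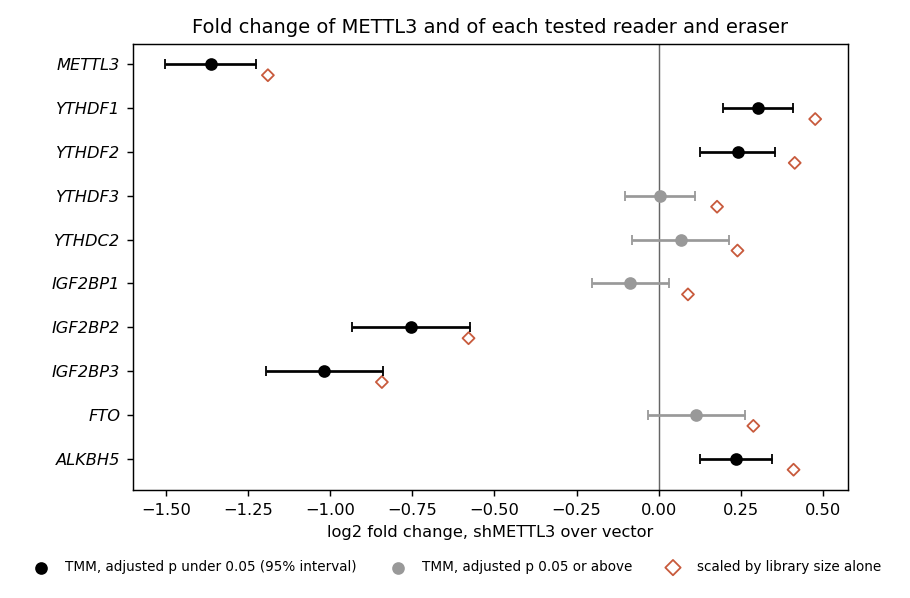
Log2 fold change of shMETTL3 over vector for METTL3 and the 9 tested genes, with 95% intervals under TMM scaling (circles, black where the adjusted p is under 0.05) and with scaling by library size alone (open diamonds). The diamonds lie to the right of the circles throughout, and only IGF2BP1 crosses 0.

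The IGF2BP family held the largest changes among the 9 genes. IGF2BP3 (ENSG00000136231, minus strand, chr7:23349828-23510110 of GRCh37) is the reader on which the study centres. It had 526, 479 and 472 counts in vector replicates 1, 2 and 3 against 308, 246 and 235 counts in shMETTL3 replicates 1, 2 and 3. These were 29.3, 28.7 and 28.9 CPM against 16.0, 12.3 and 14.8 CPM. The groups were well apart, and the shMETTL3 libraries spread more, with SDs of 0.319 CPM for vector and 1.88 CPM for shMETTL3 (n = 3 each). IGF2BP3 thus stood at 49.5% of its vector level. Its log2 fold change was -1.02 (standard error 0.086, 95% interval -1.20 to -0.84, edgeR adjusted p = 4.92e-11). The fall is well inside the range of these libraries, where 1092 genes called lower fell by more. Exons of IGF2BP3 share 1521 bases, or 17.8% of their merged length, with exons of MALSU1, which is transcribed from the other strand, and whether reads were counted by strand is not given in the sources used here. MALSU1, a mitochondrial ribosome assembly factor, had a log2 fold change of -0.34 (edgeR adjusted p = 0.000121).

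IGF2BP2 (ENSG00000073792, minus strand, chr3:185360918-185542830), the family member best known from type 2 diabetes genetics and metabolism, fell as well. Its counts were 367, 330 and 363 in vector and 249, 234 and 198 in shMETTL3. After scaling these were 20.4, 19.8 and 22.2 CPM in vector and 12.9, 11.7 and 12.5 CPM in shMETTL3, again without overlap between the groups. The level was 59.3% of that in vector, with a log2 fold change of -0.75 (standard error 0.088, 95% interval -0.93 to -0.57, edgeR adjusted p = 2.26e-08).

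IGF2BP1 (ENSG00000159217, plus strand, chr17:47074747-47133507), the founding member that binds MYC and ACTB mRNA, had 1350, 1155 and 1276 counts in vector and 1353, 1399 and 1109 counts in shMETTL3. The scaled levels were 75.2, 69.1 and 78.2 CPM in vector and 70.1, 69.8 and 69.9 CPM in shMETTL3. All 3 shMETTL3 libraries lay within the range spanned by vector, though below vector replicates 1 and 3. Its log2 fold change was -0.086, with a 95% interval of -0.20 to 0.031 (edgeR adjusted p = 0.186), an interval that leaves out a fall of the size seen for the other two. Without vector replicate 2, the log2 fold change was -0.14 (edgeR adjusted p = 0.0506).

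The balance within the family therefore shifted toward IGF2BP1. To compare levels between genes, CPM was divided by the length of each gene's merged exons in kb. The family summed to 15.0 ± 0.724 CPM per kb in vector and 11.3 ± 0.351 CPM per kb in shMETTL3 (SD, n = 3). IGF2BP1 made up 51.8%, 50.4% and 51.8% of that sum in vector replicates 1, 2 and 3 and 62.9%, 66.6% and 64.0% in shMETTL3 replicates 1, 2 and 3. The share of IGF2BP3 went from 22.7% ± 0.992 to 14.9% ± 1.51 and that of IGF2BP2 from 26.0% ± 0.587 to 20.6% ± 0.398 (SD, n = 3). No share of the 3 genes overlapped between the groups, and each gave p = 0.1 in a two-sided exact permutation test, the smallest p that 3 libraries against 3 allow (adjusted p = 0.16 over 8 shares). A share within a library does not depend on the scaling between libraries. It does depend on the length, and with the length of the canonical transcript the difference in share was -10.2 percentage points for IGF2BP3 and -3.89 for IGF2BP2, against -7.76 and -5.45 with merged exons.

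**Figure D3:**
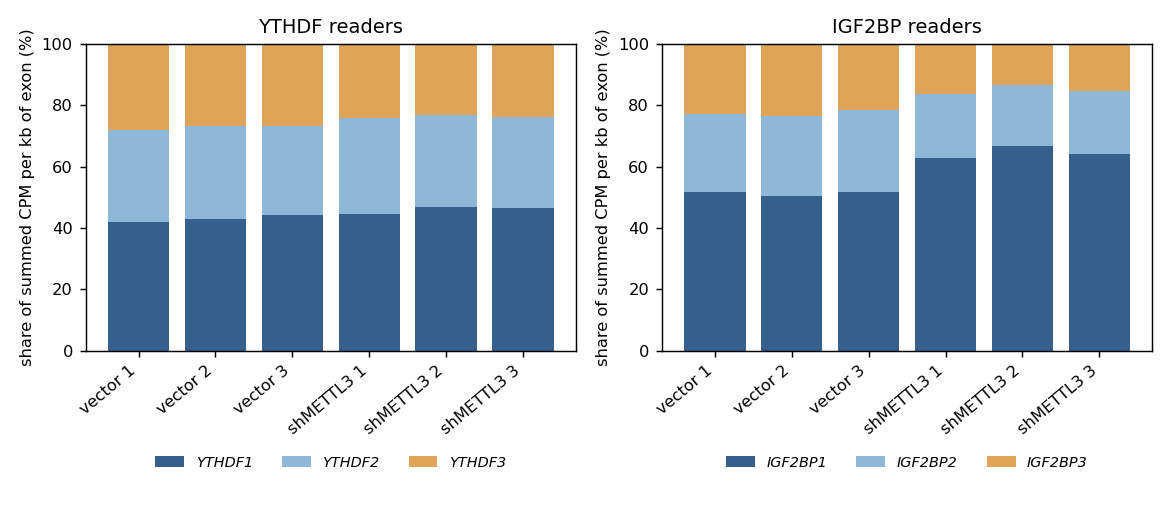
Share of each gene in the summed CPM per kb of merged exon of its family (percent, stacked to 100) in each of the 6 libraries, for the YTHDF readers on the left and the IGF2BP readers on the right. IGF2BP1 takes 50.4% to 51.8% in vector and 62.9% to 66.6% in shMETTL3, while the YTHDF shares move by a few points.

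Among the cytoplasmic YTH readers, YTHDF1 (ENSG00000149658, minus strand, chr20:61826781-61847491), first described as a promoter of translation, rose. It had 1572, 1518 and 1456 counts in vector and 2078, 2262 and 1740 counts in shMETTL3, or 87.6, 90.9 and 89.2 CPM against 108, 113 and 109.6 CPM. Each shMETTL3 library was above each vector library. The rise was small at 1.23-fold, with a log2 fold change of 0.30 (standard error 0.052, 95% interval 0.20 to 0.41, edgeR adjusted p = 1.03e-05), and 4143 genes called higher rose by more.

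YTHDF2 (ENSG00000198492, plus strand, chr1:29063133-29096287), which recruits the CCR4-NOT deadenylase to m6A mRNA, rose by a like amount. Its levels were 73.4, 74.3 and 68.0 CPM in vector and 88.1, 84.7 and 81.9 CPM in shMETTL3. The groups did not overlap, and the log2 fold change was 0.24 (standard error 0.056, edgeR adjusted p = 0.000449). A pseudogene of the same name, YTHDF2P1, had at most 7 counts in a library, against 1110 to 1701 for YTHDF2. A noncoding gene on the other strand shares 24.7% of the merged exons of YTHDF2, and another shares 9.91% of those of ALKBH5, and neither was analysed here.

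YTHDF3 (ENSG00000185728, plus strand, chr8:64081112-64125344), which works with the other two, had 113, 109 and 104 CPM in vector and 111, 107 and 108 CPM in shMETTL3. The libraries of both groups were interleaved. The log2 fold change was 0.0037 with a 95% interval of -0.10 to 0.11 (edgeR adjusted p = 0.955). Its sign turned without vector replicate 2 (-0.0015), vector replicate 3 (-0.031) or shMETTL3 replicate 1 (-0.012). Within the family sum, its share went from 27.2% ± 0.705 to 23.6% ± 0.459 and that of YTHDF1 from 43.0% ± 1.18 to 45.9% ± 1.15 (SD, n = 3), both without overlap between the groups, while the YTHDF2 shares of 29.8% ± 0.700 and 30.5% ± 0.820 overlapped. The exact permutation p was 0.1 for YTHDF1 and YTHDF3 and 0.5 for YTHDF2 (adjusted p = 0.16 and 0.5). The row YTHDF3-AS1, chosen after its values were seen, had 21, 15 and 21 counts in vector and 8, 1 and 2 counts in shMETTL3. At these low counts its log2 fold change was -2.45 (edgeR adjusted p = 7.52e-05). It is not among the neighbours of YTHDF3 compared below. YTHDF3 itself had 1699 to 2152 counts. No gene in the annotation used here shared an exon with YTHDF3.

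The nuclear reader YTHDC1 (ENSG00000083896, minus strand, chr4:69176105-69215808) is listed at 0 counts in each of the 6 libraries. A count of 0 allows up to 3 counts, or 0.150 to 0.189 CPM, for counting error only. The gene is known to be transcribed in most human cells, and the annotation used here places no other gene on its exons. Whether the row received the gene's reads cannot be told from the table, so no fold change is given, and the 0 is not read as absence of the mRNA.

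YTHDC2 (ENSG00000047188, plus strand, chr5:112849391-112930982) had 798, 682 and 571 counts in vector and 831, 835 and 658 counts in shMETTL3. The scaled levels of 44.5, 40.8 and 35.0 CPM in vector took in the 43.0, 41.6 and 41.4 CPM of shMETTL3. The log2 fold change was 0.067 with a 95% interval of -0.082 to 0.22 (edgeR adjusted p = 0.426). It was 0.14 without vector replicate 1 and turned to -0.027 without vector replicate 3 (adjusted p = 0.0963 and 0.72).

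Of the erasers, ALKBH5 (ENSG00000091542, plus strand, chr17:18086392-18113268), a nuclear demethylase, rose. It had 1368, 1208 and 1256 counts in vector and 1669, 1799 and 1421 counts in shMETTL3. These were 76.2, 72.3 and 77.0 CPM against 86.4, 89.7 and 89.5 CPM, with no overlap. The rise was 1.18-fold, at a log2 fold change of 0.24 (standard error 0.053, 95% interval 0.13 to 0.35, edgeR adjusted p = 0.000351).

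FTO (ENSG00000140718, plus strand, chr16:53735604-54192424), which also demethylates m6Am next to the mRNA cap, had 31.3, 28.3 and 27.8 CPM in vector and 30.6, 33.6 and 30.5 CPM in shMETTL3. The lowest shMETTL3 libraries lay below the highest vector library. The log2 fold change was 0.11 with a 95% interval of -0.034 to 0.26 (edgeR adjusted p = 0.164). Per kb of merged exon, ALKBH5 supplied 93.9% ± 0.365 of the summed eraser level in vector and 94.3% ± 0.253 in shMETTL3 (SD, n = 3), shares that overlapped between the groups (two-sided exact permutation test, p = 0.2, adjusted p = 0.229). That share is set by the length: in vector it was 90.4% with canonical lengths and 72.1% without division by length.

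In the vector libraries, the order of the levels per kb of merged exon began with YTHDF1 at 27.8 ± 0.512, ALKBH5 at 20.9 ± 0.697 and YTHDF2 at 19.3 ± 0.905 CPM per kb (SD, n = 3). YTHDF3 followed at 17.6 ± 0.700 and IGF2BP1 at 7.70 ± 0.480 CPM per kb. Below them came IGF2BP2 at 3.91 ± 0.242, YTHDC2 at 3.71 ± 0.442, IGF2BP3 at 3.39 ± 0.037 and FTO at 1.36 ± 0.087 CPM per kb. The ranges over libraries overlapped between YTHDF2 and YTHDF3, between IGF2BP2 and YTHDC2, and between YTHDC2 and IGF2BP3. The order rests on the length, since the merged exons of IGF2BP3, for one, span 8535 bases and its canonical transcript 4274. With canonical lengths, YTHDF2 at 26.2 CPM per kb stood above ALKBH5 at 23.8, and the lower genes ran from IGF2BP3 at 6.78 through YTHDC2 at 6.36 to IGF2BP2 at 4.86 CPM per kb. The ranges then overlapped only between IGF2BP3 and YTHDC2 among neighbours in the order.

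The m6A writer prefers the motif GGACT, written here as DNA, often near the stop codon, and the readers' and erasers' own mRNAs were searched for it on the transcript strand after the stop codon of the canonical transcript. The libraries hold no m6A measurement, so a match is a description of the letters only. In the first 300 bases after the stop codon, YTHDF2 had 2 matches, IGF2BP2 had 1 match and the other 8 genes had 0, where 28.1% of 10746 tested genes had at least 1. Over the whole stretch after the stop codon, YTHDF1 had 0 matches in 1279 bases, YTHDF3 had 0 in 3080 bases and IGF2BP1 had 7 in 6701 bases, or 1.04 per kb. Among the 8 genes with a match the density ran from 0.416 per kb in IGF2BP2 to 2.43 per kb in YTHDF2, with 1.28 per kb in ALKBH5, where these stretches held 0.814 per kb over all genes searched. For 4 of the 5 genes that changed, the match nearest the stop codon is shown, to set side by side the genes that fell and those that rose; YTHDF1 has none. Capitals mark GGACT, and each sequence runs 5′ to 3′ in GRCh37.
IGF2BP3 (fell; chr7:23350174-23350194, minus strand, adenosine 1797 bases after the stop codon): aaaatcatGGACTggctttct
IGF2BP2 (fell; chr3:185363168-185363188, minus strand, 141 bases after): gcggccagGGACTctgccgag
YTHDF2 (rose; chr1:29095534-29095554, plus strand, 80 bases after): gagaattaGGACTtttttctt
ALKBH5 (rose; chr17:18112532-18112552, plus strand, 832 bases after): agctagagGGACTggtgtcct
IGF2BP3, with the largest fall, and ALKBH5, which rose, both have their nearest match far from the stop codon. IGF2BP2, which fell, and YTHDF2, which rose, both have it close by, and YTHDF1, which rose, has none. Any relation of this distance to the direction of change was not tested.

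The position of the genes was compared with the 10 tested genes on either side that could be placed by symbol, which share a chromosomal region. IGF2BP2 lay below 19 of its 20 neighbours, whose median log2 fold change was 0.018, with SENP2 before it at 0.079 and TRA2B after it at -0.10, neither of which passed the test. IGF2BP3 lay below 16 of 20, in a region whose median was -0.32. There 11 neighbours were called lower and 7 higher, where 32.9% and 33.7% of all genes tested were. The genes directly beside IGF2BP3, MALSU1 at -0.34 and TRA2A, a splicing factor, at -0.29, were both called lower. Of the 15125 genes tested, 1777 were called lower and fell by more than IGF2BP2, and 1092 by more than IGF2BP3. Genes with such falls thus lay below most genes, whatever their region. Around IGF2BP1 the median was 0.33, with 9 called higher and 4 lower, beside 33.7% and 32.9% of all genes tested. With 20 genes on either side these medians were -0.058 around IGF2BP3 and -0.095 around IGF2BP1. Medians around the rising genes were 0.026 for YTHDF1, -0.013 for YTHDF2 and -0.12 for ALKBH5, and they too moved with the number of genes taken: with 5 on either side they were 0.17 for YTHDF1 and -0.32 for YTHDF2, and with 20 they were -0.11 for YTHDF1 and -0.036 for ALKBH5. RPGRIP1L, a ciliary gene that lies head to head with FTO, rose with a log2 fold change of 0.62 (edgeR adjusted p = 8.96e-07), and IRX3 on the other side of FTO had 0.067 (adjusted p = 0.713). Copy number was not measured, and its part in these changes was not tested.

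The list of 12 other proteins proposed to bind m6A RNA held 3 genes that rose and 4 that fell, and 5 did not pass the test, with a median log2 fold change of 0.024. With library sizes alone the split was 6 higher and 3 lower. In each of the 4 lists, the counts stand beside 33.7% of all genes tested called higher and 32.9% called lower. FMR1, the fragile X protein that binds polysomes, rose with 21.4, 20.8 and 21.1 CPM in vector and 36.8, 36.7 and 39.8 CPM in shMETTL3 (log2 fold change 0.84, edgeR adjusted p = 4.48e-11). G3BP1, a stress granule protein, rose by 0.50. SND1, a nuclease of the RNA-induced silencing complex, fell by 0.57 on the log2 scale and HNRNPA2B1, a splicing factor named as a nuclear reader, fell by 0.39. ELAVL1 (HuR), an mRNA stabilizer that works with IGF2BP proteins, had 99.1 ± 2.89 CPM in vector and 91.4 ± 2.75 CPM in shMETTL3 (SD, n = 3; log2 fold change -0.12, edgeR adjusted p = 0.0533), and passed as lower in 3 of 15 alternative fits, with the replicate block (adjusted p = 0.0391), RLE scaling (0.0467) and without vector replicate 1 (0.0304). EIF3A, a translation initiation factor subunit, rose by 0.13 and did not pass in 5 of 15 alternative fits, namely without a filter on low counts (edgeR adjusted p = 0.0513), with DESeq2 and the replicate block (0.0509) and without vector replicate 2 (0.167), shMETTL3 replicate 1 (0.088) or shMETTL3 replicate 2 (0.11).

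Of the 10 partners of the readers, 2 rose, 1 fell and 7 did not pass, with a median of 0.089. Without vector replicate 3 the split was 4 higher and 1 lower, without vector replicate 2 it was 1 higher and 2 lower, and with library sizes alone it was 7 higher and 1 lower. PABPC1, the cytoplasmic poly(A)-binding protein, had 2949, 2935 and 3186 CPM in vector and 1464, 1552 and 1544 CPM in shMETTL3, a log2 fold change of -0.99 (edgeR adjusted p = 1.2e-15). MEIOC, the meiotic partner of YTHDC2, rose with a log2 fold change of 1.04 from 28, 36 and 21 counts to 76, 78 and 37 counts, and SRSF10, a splicing factor that YTHDC1 keeps from its target mRNAs, rose by 0.62 from 20 to 32 counts in vector to 39 to 51 counts in shMETTL3. The rise of SRSF10 did not pass with DESeq2 (adjusted p = 0.0599, and 0.143 with the replicate block) or with edgeR without vector replicate 2 (0.115) or shMETTL3 replicate 1 (0.0621). CNOT1, the scaffold of the deadenylase that YTHDF2 recruits, had a log2 fold change of -0.093 (edgeR adjusted p = 0.108) and passed as lower without vector replicate 2 (adjusted p = 0.0399). Of the 7 other AlkB-family dioxygenases, ALKBH3, a demethylase of alkylated DNA and RNA, rose by 0.65 (edgeR adjusted p = 1.35e-08), ALKBH7, a mitochondrial protein, fell by 0.34 on the log2 scale (adjusted p = 0.00269), and 5 did not pass. With library sizes alone, ALKBH7 did not pass (log2 fold change -0.16, adjusted p = 0.142) and 2 genes of this list were higher.

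Of 8 RNAs known to be bound by IGF2BP proteins, 3 rose and 4 fell, with a median of -0.12. MCM5, the replicative helicase subunit that the study follows as an IGF2BP3 target, had 48.0, 47.2 and 54.9 CPM in vector and 21.9, 22.2 and 22.6 CPM in shMETTL3. MYC fell as well, at a log2 fold change of -0.73 (edgeR adjusted p = 5.06e-12), as did LIN28B at -0.84 and ACTB at -0.34. In the other direction, IGF2, which gave the family its name, had 6, 6 and 0 counts in vector and 103, 112 and 78 counts in shMETTL3 (log2 fold change 4.45, edgeR adjusted p = 2.59e-12). It met the filter on low counts through the shMETTL3 libraries alone, and was not tested where at least 10 counts were asked of every library. H19, the noncoding RNA from the same imprinted locus, went from 32, 36 and 30 counts to 346, 394 and 305 counts (log2 fold change 3.29, edgeR adjusted p = 5.28e-18). HMGA2, a chromatin protein of embryonic tissue, rose by 0.95. CD44 did not pass the test, at 0.10, and passed as higher in 5 of 15 alternative fits, with upper-quartile scaling, library sizes alone, at least 10 counts in every library, limma-voom and without vector replicate 3 (adjusted p from 1.44e-05 to 0.0384). The RNAs on this list thus went both ways while IGF2BP2 and IGF2BP3 fell, and binding was not measured in these libraries.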

How the data were processed

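The authors mapped reads of the 6 libraries to hg19 with HISAT2 and counted them per gene with htseq. The submitters' processing notes name HISAT2 2.2.1, HTSeq 0.13.5, cutadapt 3.0 and SAMtools 1.13, and the paper's methods give older releases of the first 2. The annotation and strand setting of the counting are not given in the sources used here. The deposited counts are whole numbers per gene symbol, without normalization, and no column was left unused.

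From these counts, TMM scaling, filterByExpr, glmQLFit and glmQLFTest were run in R 4.3.3 with edgeR 4.0.16 on group alone, with Benjamini-Hochberg adjustment over the 15125 genes tested. CPM is scaled to the TMM-adjusted total of the tested genes. Standard errors were derived from the F statistic and the coefficient before shrinkage. Shares were compared with SciPy 1.17.1. Positions, exons and transcripts came from GENCODE on GRCh37, the build named hg19, and 90.5% of the tested genes were placed by symbol. Exon overlaps were searched for the readers, erasers and METTL3 only. On simulated counts, the test recovered 74 of 97 genes changed by 0.5 and 96 of 103 changed by 1 on the log2 scale, with 16 false calls among 14822 genes. These were the only genes changed in the simulation, up or down, and all lay above a minimum mean level. In the real libraries 66.6% of genes were called, so these rates need not hold there. Pairs of libraries within a group differed by more than sampling noise, with a chi-square per degree of freedom of 2.76 to 7.38, so all 6 were kept. Alternatives used other scalings and filters, DESeq2 1.42.0, limma-voom (limma 3.58.1), a replicate block and fits without each library.

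The members and lists were chosen with earlier results of these data known. The genes named were drawn, without naming every one, from the members, METTL3, the genes next to a member, from each list, markers included, the 2 largest called rises and falls and any gene not tested, and MCM5, ELAVL1, IGF2, H19 and MYC. CNOT1, EIF3A, CD44, HMGA2, ACTB, AKR1B10, NQO1, YTHDF2P1 and YTHDF3-AS1 were named after their values were seen.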

Additional observations from a re-analysis of the deposited data

How the results depend on the processing

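The count of 5 changed readers and erasers, 3 higher and 2 lower, held under RLE and upper-quartile scaling, both filters, DESeq2, limma-voom, the replicate block and each fit without 1 library. With library sizes alone as the scaling, the median over all genes was 0.18 instead of 0.0022 and 8 changed, 6 of them higher, with 65.8% of all calls higher against 50.6% under TMM. YTHDF3 (0.18), YTHDC2 (0.24) and FTO (0.29) then passed as higher and IGF2BP1 turned to 0.089 without passing. Relative to that median they stood at 0.0014, 0.064, 0.11 and -0.087. With a minimum absolute log2 fold change of 0.5 and 1, 2 genes and 1 gene were left, with no rise among them, where 39.1% and 17.6% of all genes tested passed, since such a minimum takes out small changes.

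The log2 fold change of YTHDF3 turned to -0.0092 without a filter and ran from -0.031 to 0.026 across the 6 fits without 1 library, that of YTHDC2 from -0.027 to 0.14, that of FTO from 0.066 to 0.16 and that of IGF2BP1 from -0.14 to -0.053. For FTO the lowest value came without shMETTL3 replicate 2, and none of these 4 genes passed in any of these fits. Across these fits IGF2BP3 ran from -1.11 to -0.91 and IGF2BP2 from -0.80 to -0.71. The deviations of same-numbered libraries had correlations of 0.047, -0.0024 and 0.033, where those of differently numbered libraries ran from -0.054 to 0.020. All were small, and the numbers were not taken as pairs. The replicate block gave 10111 changed genes against 10067 and the same 5 of 9 as a count. DESeq2 gave 9234 changed genes without the block and 8148 with it, a fit added after seeing the data, and 5 of 9 in both.

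Of the partners of the readers, 8 changed with library size alone and 2 to 5 across the fits without 1 library, against 3, with 5 without vector replicate 3. The split for this list was 1 higher and 1 lower with DESeq2, 1 higher and 2 lower without vector replicate 2, and 7 higher and 1 lower with library size alone. Without division by length, the shares moved by -4.41 points for YTHDF3, -4.01 for IGF2BP2, -1.67 for FTO and 1.67 for ALKBH5. With canonical lengths, also added after seeing the data, they moved by -3.89 for IGF2BP2 and -10.2 for IGF2BP3. With 5 neighbours on either side, the medians were 0.17 around YTHDF1, -0.32 around YTHDF2, -0.41 around YTHDF3, 0.077 around YTHDC1, 0.39 around YTHDC2, 0.40 around IGF2BP1, -0.067 around IGF2BP2 and 0.043 around FTO. With 20 they were -0.11 around YTHDF1, 0.14 around YTHDC1, -0.095 around IGF2BP1, -0.058 around IGF2BP3 and -0.036 around ALKBH5. The median around IGF2BP3 was -0.32 with 5 and with 10 on either side.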
